A study of Mus musculus with 10 samples.

Results

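Tropomyosins, tropomodulins and leiomodins are the coiled-coil and filament-end proteins of the thin, actin-based filament of muscle. Their genes were followed in cardiomyocytes, the contracting cells of the heart, after expression of dnMKL1, a dominant-negative version of MKL1 (MRTF-A), which is a coactivator of transcription. The members were taken by gene symbol, as rows of the authors' deposited comparison: 4 tropomyosins (Tpm1, Tpm2, Tpm3, Tpm4), 2 tropomodulins (Tmod1, Tmod3) and 2 leiomodins (Lmod2, Lmod3). All 8 symbols had a row among the 23337 genes listed, and all 8 carried an adjusted p-value, as did 14056 genes in all.

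Both groups were Wildtype mice injected on postnatal day 1 with AAV9, an adeno-associated virus, at 5e+08 viral genomes per gram, and sampled on postnatal day 14. The GFP group (5 libraries) received AAV9-cTNT-GFP and the dnMKL1 group (5 libraries) received AAV9-cTNT-dnMKL1-GFP. In both, the cardiac troponin T promoter (cTNT) restricts the transgene to cardiomyocytes, and cells were sorted by fluorescence after collagenase perfusion, so that the profiles cover sorted cells and not whole hearts. RNA sequencing compared the groups, and the labels do not say whether animals were pooled or came from different litters.

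Tropomyosin dimers lie end to end along the actin filament, where with the troponin complex they make its binding to myosin depend on calcium. Tropomodulins cap the slow-growing (pointed) end of the filament near the middle of the sarcomere, and leiomodins, their larger relatives, promote filament nucleation and lengthening at that end. MKL1 acts through serum response factor (SRF), which binds a DNA element called the CArG box, and many genes of the actin cytoskeleton and the sarcomere are SRF targets.

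Because SRF is the partner of MKL1, the 250 bases before each RefSeq start (GRCm38.p6) were searched for the CArG box, and sequence is shown for the 3 genes with matches close to it. RefSeq and GENCODE M21, used for the gene positions given with each gene, place the starts differently, so that from 2 to 250 bases of each window lie inside the gene as GENCODE draws it. Printed is the part outside it, 57 bases for Tpm1, 248 for the first start of Tpm3 and 241 for Lmod2, written 5′ to 3′ on the strand of the gene. Capitals mark matches to the CArG box with at most 1 of its 10 letters off.
Tpm1 (chr9:67049407-67049463, minus strand): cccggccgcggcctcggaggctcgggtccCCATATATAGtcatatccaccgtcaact
Tpm3 (chr3:90072401-90072648, plus strand): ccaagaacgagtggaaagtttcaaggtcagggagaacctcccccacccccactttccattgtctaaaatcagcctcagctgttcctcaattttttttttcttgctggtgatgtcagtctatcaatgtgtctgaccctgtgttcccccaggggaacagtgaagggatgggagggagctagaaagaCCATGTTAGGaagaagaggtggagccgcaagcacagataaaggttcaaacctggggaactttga
Lmod2 (chr6:24597521-24597761, plus strand): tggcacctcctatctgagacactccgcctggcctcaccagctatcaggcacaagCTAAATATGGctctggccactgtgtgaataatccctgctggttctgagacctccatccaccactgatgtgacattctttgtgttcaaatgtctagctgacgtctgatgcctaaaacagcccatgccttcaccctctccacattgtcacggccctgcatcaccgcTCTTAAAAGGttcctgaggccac

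RefSeq windows were matched for 6 of the 8 genes (not Tmod3 and Lmod3), with 2 starts for Tpm3 and so 7 windows. No window held a complete CArG box, which 1.47% of 32851 promoter windows of the same length held. Matches with 1 letter off were present before Tpm1 (2 matches), Lmod2 (2 matches) and both starts of Tpm3 (1 and 2 matches), against 17.5% of all windows. In Tpm1 they began 221 and 80 bases before the RefSeq start, the first of them outside and the other inside the GENCODE gene. Both matches of Lmod2, 196 and 32 bases before the start, lie outside it, as does the 1 before the first start of Tpm3. CATTCC, on either strand the element bound by TEAD factors in muscle promoters, was found once each in the windows of Tpm1 and Tmod1, inside the GENCODE gene, and in 12.6% of all windows. The windows of Tpm2 and Tpm4 held none of these letters, and no member's window held a MEF2 site, the element of another muscle factor family (0.508% of all windows). Such matches describe the letters of these windows and not whether a factor binds there.

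Values are in normalized counts, that is, read counts divided by each library's size factor. The authors' deposited table gives 1 mean per gene over all libraries (the base mean) and 1 log2 fold change with its standard error (SE), from which a mean for each group was computed, called the implied mean. Positive fold changes mean higher expression in dnMKL1 libraries. That direction was read from Mkl1, the gene behind the vector's product, which the authors' deposited table lists at a log2 fold change of 9.80 (SE 0.15), vector and endogenous reads together. Estimated library totals ran from 8803028 to 17228616 counts. All 8 cardiomyocyte markers were present, with implied means up to 768373 normalized counts for Myh6. Of the 8, 4 were lower and 0 higher (3 and 0 when both groups were scaled to the same total). Over all genes tested 17.4% were lower and 16.6% higher, and 6.60% and 40.4% with both groups scaled to the same total. All 8 have base means of 10000 or more, where 70.7% of 140 genes were lower and 3.57% higher. Values per library were not used here, so the spread between libraries enters through the SE, and 95% intervals are the fold change plus or minus 1.96 SE. In bulk RNA from sorted cells, fewer cells of a type and less RNA per cell cannot be told apart.

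The 8 genes moved in different directions. Past an adjusted p-value of 0.05 in the authors' Wald test, 3 of the 8 were higher in dnMKL1 libraries (Tpm2, Tpm3 and Tmod3) and 3 were lower (Tpm1, Tmod1 and Lmod3), while Tpm4 and Lmod2 did not pass. Over all genes tested, 34.1% passed, 16.6% higher and 17.4% lower. The log2 fold changes of the 8 ran from -0.71 to 2.36 with a median of 0.15, beside 0.021 over all genes tested. Of the 4 members with base means of 1000 or more, 3 were lower and 0 higher, where 42.1% of 2126 genes that abundant were lower and 13.7% higher. Of the 4 with base means from 100 to 1000, 3 were higher and 0 lower, where 20.0% of 6515 genes were higher and 19.3% lower.

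**Figure D1:**
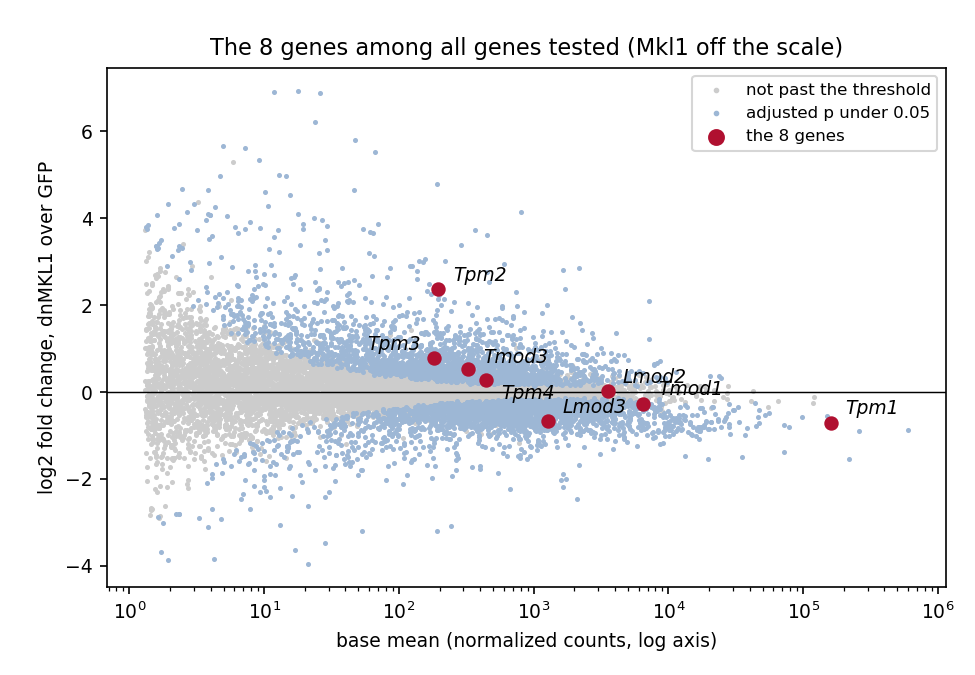
Each point is a gene with an adjusted p-value, by base mean in normalized counts (log axis) and log2 fold change of dnMKL1 over GFP, with genes past an adjusted p-value of 0.05 in blue, other genes in grey and the 8 genes in red. Tpm1 lies far to the right at a log2 fold change of -0.71, and Tpm2 stands highest of the 8 at 2.36.

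The direction of Tmod1 and the call of Lmod2 depended on how libraries were scaled. Summed over all genes, the implied means came to 13330302 normalized counts with GFP and 10915829 with dnMKL1, and scaling both to the same total adds 0.29 to every log2 fold change. Under that scaling 40.4% of all genes were higher and 6.60% lower (41.3% and 6.34% with Mkl1 left out of the totals), against 18.3% and 16.0% after centring on the median gene. Tpm1 and Lmod3 remained lower and past the threshold, and Tpm2, Tpm3 and Tmod3 remained higher and past it. Tmod1 turned to 0.016 and was no longer past the threshold, and Lmod2 passed it at 0.31.

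Tpm1 encodes the main tropomyosin of cardiac muscle (alpha-tropomyosin). Its gene, ENSMUSG00000032366.15, lies at chr9:67022590-67049406 (GRCm38, minus strand) and has 16 protein-coding transcripts in GENCODE M21, among them striated, smooth muscle and non-muscle forms, which gene-level counts add together. With a base mean of 159697 it ranked 4 of all genes listed and made up 1.32% of all normalized counts. Its implied mean was 198157 normalized counts with GFP and 121237 with dnMKL1. It fell: its log2 fold change, from the authors' deposited table, was -0.71 (SE 0.13, adjusted p = 3.2e-07), a ratio of 0.612 with a 95% interval of 0.515 to 0.727. Among the 140 genes with base means of 10000 or more, 70.7% were lower and 3.57% higher. The summed implied means of the 8 cardiomyocyte markers had a ratio of 0.621, near that of Tpm1 and the 0.625 of Lmod3, with a median log2 fold change of -0.38. Most of these sums was Myh6, with a ratio of 0.549, so that this nearness rests largely on Myh6. The ratios of single markers ran from 0.385 to 0.924. The part of the shift in these markers in the falls of Tpm1 and Lmod3 was not tested.

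Tpm2 encodes beta-tropomyosin, which is prominent in slow skeletal muscle, in smooth muscle and in the fetal heart. The gene (ENSMUSG00000028464.16) lies at chr4:43514711-43523765 on the minus strand and has 4 protein-coding transcripts. Its implied mean was 63.7 normalized counts with GFP and 327 with dnMKL1. That is a 5.14-fold rise with a 95% interval of 3.82 to 6.92, and the authors' deposited table gave a log2 fold change of 2.36 (SE 0.22, adjusted p = 1.4e-24). About 42.1 reads would be expected in the shallowest GFP library.

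Tpm3, which encodes slow skeletal tropomyosin and several cytoskeletal forms, lies at chr3:90072649-90100902 on the plus strand (ENSMUSG00000027940.18). Its implied mean was 134 normalized counts with GFP and 231 with dnMKL1. The authors' deposited table gave a log2 fold change of 0.79 (SE 0.20, adjusted p = 5.9e-04), a 1.72-fold rise with a 95% interval of 1.31 to 2.27. The annotation holds the retroposed copies Tpm3-rs2 and Tpm3-rs7, neither of which has a row here, so that reads shared with them could be assigned to Tpm3 or lost.

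Tpm4 encodes a tropomyosin of the non-muscle cytoskeleton and lies at chr8:72134975-72153142 on the plus strand (ENSMUSG00000031799.9). Its implied mean was 402 normalized counts with GFP and 488 with dnMKL1. With a log2 fold change of 0.28 and an SE of 0.40 in the authors' deposited table (adjusted p = 0.66), its interval runs from a ratio of 0.706 to one of 2.09. This interval covers changes from -29.4% to 109%. Its SE was the largest of the 8, beside a median of 0.12 over the 6515 genes with base means from 100 to 1000.

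Set side by side, the tropomyosins differed in fold change by more than their errors in 4 of 6 pairs. Since members share libraries, their estimates are correlated by an unknown amount, and the intervals of differences used the sum of both SEs, the widest that any correlation allows. Tpm2 exceeded Tpm1 by 3.07 on the log2 scale (95% interval 2.39 to 3.75), Tpm3 by 1.58 (0.75 to 2.40) and Tpm4 by 2.08 (0.87 to 3.29). Tpm3 exceeded Tpm1 by 1.49 (0.85 to 2.14). For Tpm3 against Tpm4 the interval, -0.67 to 1.68, included 0, and for Tpm4 against Tpm1 it ran from -0.042 to 2.02. Over the 8 pairs within the 3 families, 6 intervals excluded 0, and the same 6 passed after Benjamini-Hochberg adjustment over the 8.

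The make-up of the tropomyosin transcripts was counted per kilobase of the longest coding transcript, which allows genes to be set against each other. Tpm1 made up 99.6% of this total with GFP and 98.9% with dnMKL1. Tpm2 went from 0.0425% to 0.355%, Tpm3 from 0.0871% to 0.244% and Tpm4 from 0.274% to 0.540%. The shares of all of the minor genes contain the fall of Tpm1 in their denominator, Tpm4 included. By level per kilobase Tpm2 was the lowest of the 4 in the GFP group, at 29.3. In the dnMKL1 group Tpm2 stood at 151 and Tpm3 at 103, a gap within their spread. With merged exons as the length, Tpm2 was above Tpm3 there beyond the spread.

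**Figure D2:**
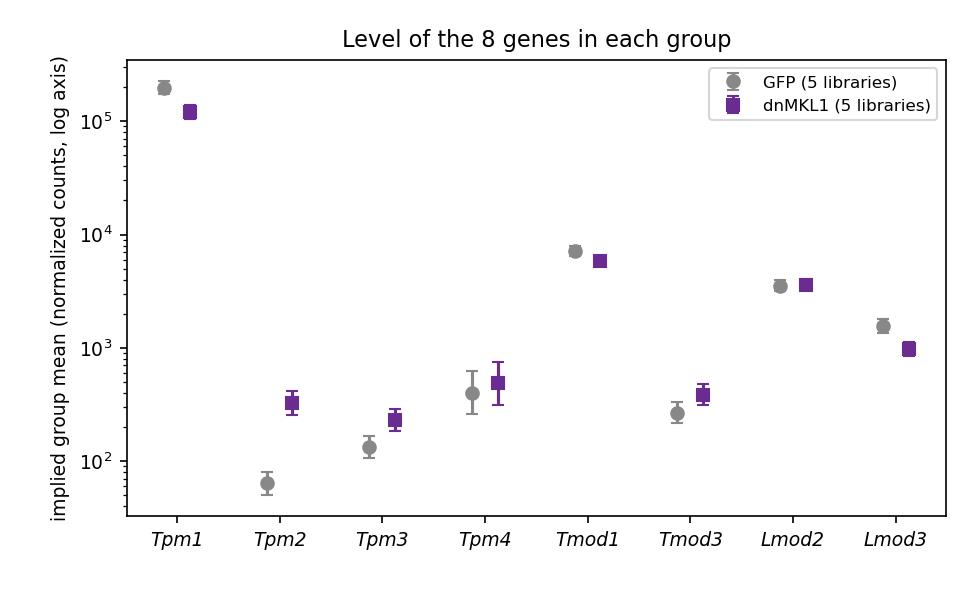
The implied group mean of each gene in normalized counts (log axis) is shown for the GFP group (grey circles) and the dnMKL1 group (purple squares), with bars of 1 implied coefficient of variation between libraries, taken from the deposited SE. Tpm1 lies above all others in both groups, and the bars of Tpm2 are far apart at 63.7 and 327.

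Tmod1 encodes the tropomodulin of striated muscle and red cells, which caps the pointed ends in cardiac sarcomeres. It lies at chr4:46038935-46116032 on the plus strand (ENSMUSG00000028328.13). The implied mean was 7118 normalized counts with GFP and 5894 with dnMKL1. At a log2 fold change of -0.27 (SE 0.09, adjusted p = 0.013) per the authors' deposited table, it fell by 17.2%, with an interval of -27.1% to -6.01%, and as given above this fall depends on the scaling. The gene overlaps Tstd2 on the other strand, whose base mean of 323 is small beside the 6506 of Tmod1.

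Tmod3, the broadly expressed tropomodulin, lies at chr9:75497707-75559657 on the minus strand (ENSMUSG00000058587.9). The implied mean was 269 normalized counts with GFP and 386 with dnMKL1. In the authors' deposited table it rose by a log2 fold change of 0.52 (SE 0.19, adjusted p = 0.021), or 1.44-fold with an interval of 1.11 to 1.86. It exceeded Tmod1 by 0.79 on the log2 scale (95% interval 0.24 to 1.35). Per kilobase, the share of Tmod3 in the pair was 3.15% with GFP and 5.34% with dnMKL1.

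Lmod2 encodes the main cardiac leiomodin and lies at chr6:24597762-24605414 on the plus strand (ENSMUSG00000029683.7). Its implied mean was 3545 normalized counts with GFP and 3608 with dnMKL1. The log2 fold change was 0.025 (SE 0.10, adjusted p = 0.89) in the authors' deposited table, and the interval of the ratio, 0.891 to 1.16, leaves out a rise or fall as large as the value of any of the 6 called members under the authors' scaling. Lmod3, a leiomodin of skeletal and cardiac muscle, lies at chr6:97238534-97252759 on the minus strand (ENSMUSG00000044086.8). Its implied mean was 1559 normalized counts with GFP and 974 with dnMKL1. The authors' deposited table gave Lmod3 a log2 fold change of -0.68 (SE 0.13, adjusted p = 1.4e-06), a ratio of 0.625 with an interval of 0.525 to 0.743.

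The leiomodins thus parted: Lmod2 exceeded Lmod3 by 0.70 in log2 fold change (95% interval 0.26 to 1.15). Per kilobase, Lmod2 made up 71.8% of the pair with GFP and 80.6% with dnMKL1. Klhl40, listed under its older symbol Kbtbd5, encodes a protein that stabilizes Lmod3 in skeletal muscle and was named after its value was seen. Its log2 fold change was -0.41 (SE 0.17, adjusted p = 0.040) in the authors' deposited table, and -0.12, not past the threshold, under total-count scaling.

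**Figure D3:**
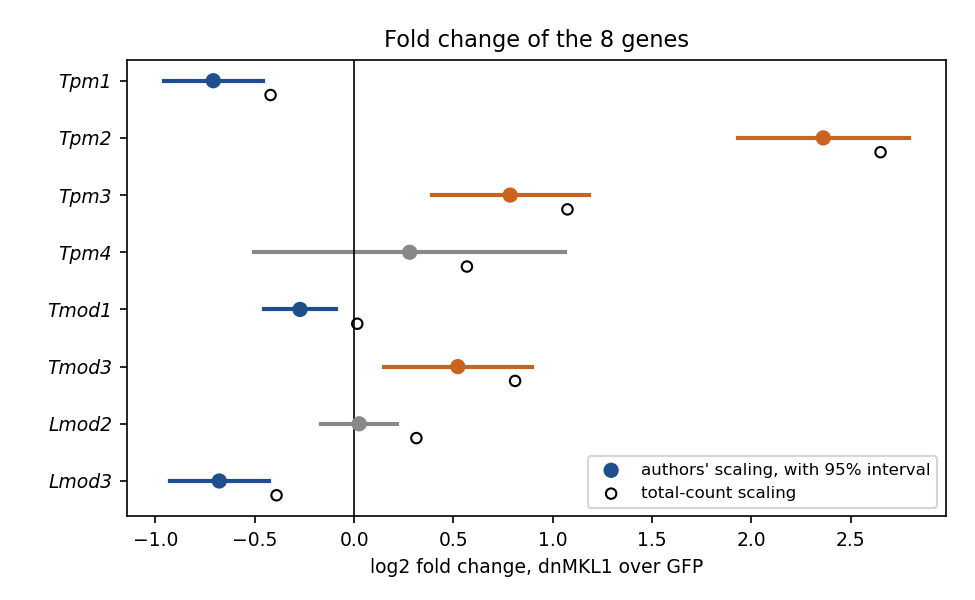
The log2 fold change of dnMKL1 over GFP is drawn for each gene under the authors' scaling with its 95% interval (orange higher, blue lower, grey not past the threshold) and under total-count scaling (open circles). Tmod1 moves from -0.27 to 0.016 and Lmod2 from 0.025 to 0.31, while Tpm1 and Lmod3 stay below 0 and Tpm2 lies above 2 in both.

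By level per kilobase of the longest coding transcript, the order in the GFP group was Tpm1 (68566), Tmod1 (2254), Lmod2 (1794), Lmod3 (704), Tpm4 (189), Tmod3 (73.3), Tpm3 (60.0) and Tpm2 (29.3). Tmod3 and Tpm3 did not differ beyond their spread. With merged exons as the length, neither did Tmod1 and Lmod2, nor Tpm3 and Tpm2. In the dnMKL1 group the order was Tpm1 (41951), Tmod1 (1866), Lmod2 (1826), Lmod3 (440), Tpm4 (229), Tpm2 (151), Tmod3 (105) and Tpm3 (103). Of neighbours in that order, Tmod1 and Lmod2, Tpm4 and Tpm2, Tpm2 and Tmod3, and Tmod3 and Tpm3 did not differ beyond their spread. With merged exons Lmod2 was above Tmod1, Tpm4 above Tpm2 and Tpm2 above Tpm3, each beyond the spread. Tpm3 then stood above Tmod3, within the spread. The ratio of Tpm1 to Tmod1 per kilobase was 30.4 with GFP and 22.5 with dnMKL1. That of Tpm1 to Lmod3, which fell by a like amount, was 97.4 and 95.4.

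The precision behind these values came from the spread between libraries more than from depth. The SE of Tpm1 was 55.4 times what counting alone would give, and that of Tpm2 was 2.48 times, so that counting made up 0.0325% and 16.3% of the variance. DESeq2 steadies such SEs with information from other genes. Taken as equal in both groups, they correspond to coefficients of variation between libraries of 10.2% for Tmod1, 10.8% for Lmod2, 13.9% for Tpm1, 14.0% for Lmod3, 20.9% for Tmod3, 22.1% for Tpm3, 24.0% for Tpm2 and 43.7% for Tpm4. The 4 genes with low levels were thus the more variable ones, and Tpm4 the most.

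Of the paralogs outside the members, Tmod2 and Lmod1 were scarce, while Tmod4 was near Tpm3 in normalized counts in the GFP group. Per kilobase of merged exons Tmod4 stood above Tpm3 there, at 75.0 against 22.0. Tmod4, a skeletal muscle tropomodulin, had implied means of 129 and 51.8 normalized counts in the GFP and dnMKL1 groups, and the authors' deposited table lists it at a log2 fold change of -1.31 (SE 0.17, adjusted p = 2.8e-13). Tmod2, the neuronal tropomodulin, and Lmod1, the smooth muscle leiomodin, had base means of 5.88 and 6.23 and did not pass the threshold (log2 fold changes of 0.23, SE 0.56, and 0.68, SE 0.58, in the authors' deposited table).

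Tpm1 was then set against its partners in the thin filament, namely the most abundant actin and the most abundant subunit of each troponin. Actc1, the cardiac actin, had a log2 fold change of -1.55 (SE 0.15) and Tnnc1, the calcium-binding subunit, one of -1.54 (SE 0.17) in the authors' deposited table. The change of Tpm1 was smaller than those by 0.84 (95% interval 0.31 to 1.38) and 0.83 (0.25 to 1.40). Against Tnnt2, the subunit that holds tropomyosin, at -0.58 (SE 0.10), and Tnni3, the inhibitory subunit, at -0.49 (SE 0.13) in the authors' deposited table, the difference was -0.13 (-0.56 to 0.31) and -0.22 (-0.72 to 0.28). Of these 4 intervals 2 excluded 0, also after Benjamini-Hochberg adjustment over the 4. Differences between genes do not depend on the scaling of libraries.

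Of the 6 actins, 3 were lower and 0 higher (Actc1, Actg1 and Acta2), with a median log2 fold change of -0.72. Of the 7 troponin genes tested, 3 were lower (Tnnc1, Tnnt2 and Tnni3) and 1 higher, with a median of -0.13 over the 8 with a fold change. The higher one was Tnni1, the slow skeletal and fetal cardiac inhibitory subunit, at 1.40 (SE 0.48, adjusted p = 0.013) in the authors' deposited table. Under total-count scaling Tnni3 did not pass the threshold and the other calls of both lists held. Of 20 genes for filament ends and turnover, 4 were higher and 7 lower, with a median of 0.0051, against 8 and 3 under total-count scaling. The shares over all genes tested were 16.6% higher and 17.4% lower, and 40.4% and 6.60% under total-count scaling. The smallest p-values among the higher genes were those of Gsn, a severing protein, and Cfl1, non-muscle cofilin, at 1.15 (SE 0.10) and 0.69 (SE 0.14), and among the lower genes those of Wdr1, a cofilin partner, and Pfn2, a profilin, at -0.94 (SE 0.06) and -0.72 (SE 0.10) in the authors' deposited table.

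**Figure D4:**
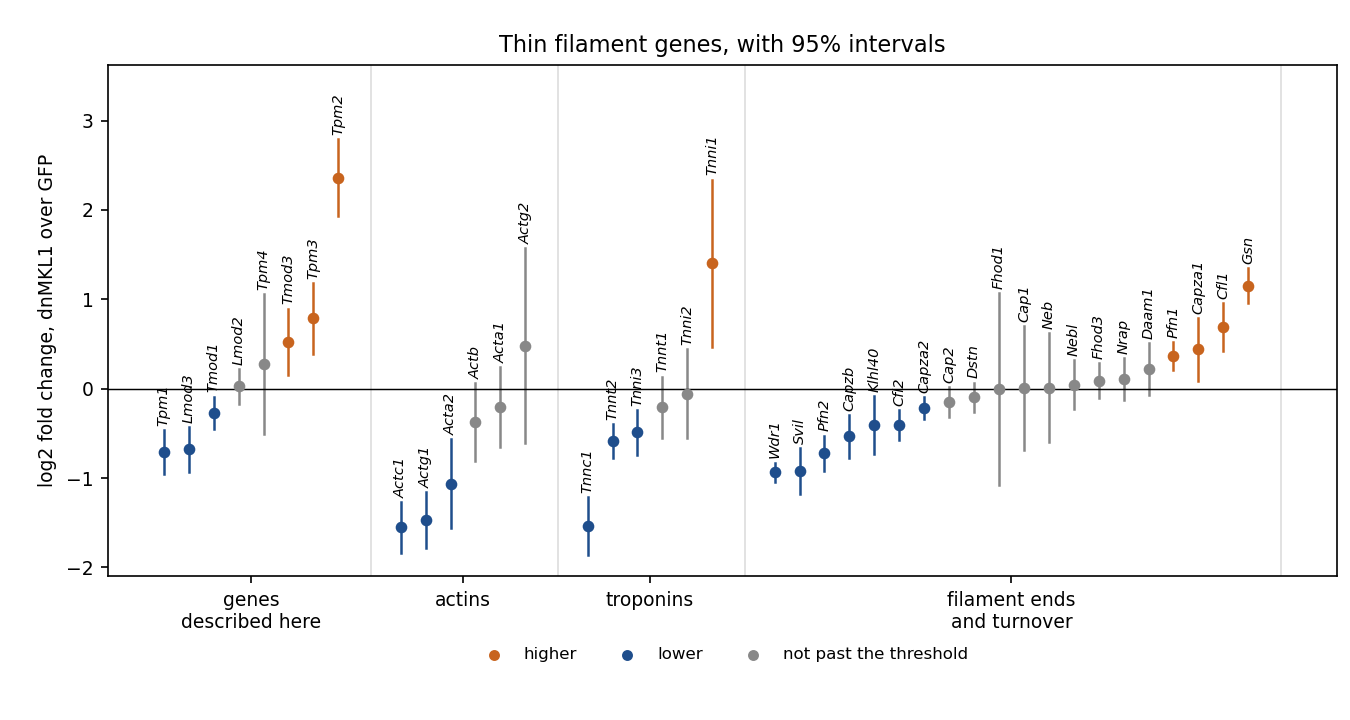
The log2 fold change of dnMKL1 over GFP is shown with its 95% interval for the 8 genes, 6 actins, 6 troponins and 20 genes of filament ends and turnover, coloured by call under the authors' scaling. Troponins with base means under 2 normalized counts (Tnnc2 and Tnnt3) are left out, and the actins reach lower than any of the 8 genes.

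Among the factors that act on SRF and MEF2 sites, Srf stood at -0.80 (SE 0.10), Mkl2 at 0.43 (SE 0.08), Myocd at 0.90 (SE 0.21) and Mef2d at -0.42 (SE 0.08) on the log2 scale in the authors' deposited table, all past the threshold. Mef2a and Mef2c, at -0.12 (SE 0.11) and -0.13 (SE 0.07) in the authors' deposited table, did not pass. With Mkl1, 3 of these 7 were higher and 2 lower, and under total-count scaling Mef2d did not pass.

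Tropomyosins and Tmod3 are also expressed by smooth muscle cells, fibroblasts and endothelium, so markers of those cells were read beside them. Of 10 fibroblast markers 4 were higher and 0 lower, with summed implied means of 4322 normalized counts with GFP and 6906 with dnMKL1, and folds up to 2.60 (Fbln1). Under total-count scaling 8 of the 10 were higher. Over all genes tested 16.6% were higher and 17.4% lower, and under total-count scaling 40.4% and 6.60%. Of 10 smooth muscle and pericyte markers 3 were higher (Cspg4, Tagln and Myh11) and 1 was lower (Acta2, which young cardiomyocytes also express). Under total-count scaling 5 were higher and 1 lower. Their sums were 14767 and 10690 normalized counts, a ratio of 0.724, but Acta2 made up 70.8% of the GFP sum. Without Acta2, a choice made after its value was seen, the other 9 summed to 4313 and 5691, a ratio of 1.32. Of these sums Cspg4 held 501 and 2019 normalized counts, a rise larger than that of the 9 together. The rest of the 9, summed, thus did not rise. The largest fold was 4.03 for Cspg4, inside the interval of Tpm2. Of 8 endothelial markers 0 passed in the authors' Wald test, and their sums were 3219 and 3222. None of them had an unadjusted p-value under 0.05 (0 of 8), and their SEs, from 0.25 to 0.52, span that of Tpm4.

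Macrophage markers summed to 136 and 123 normalized counts, with 1 of 6 higher. Of 10 skeletal muscle markers, 8 had base means under 2 normalized counts, 1 of them (Myog) listed at 0. Mylpf had implied means of 5.53 with GFP and 12.8 with dnMKL1, not past the threshold. Ckm, which the heart shares, was lower, at 51684 and 18176. Atrial markers summed to 2457 and 8136 normalized counts, most of it Nppa, which has no p-value, and 0 of the 4 tested passed in the authors' Wald test (0 at an unadjusted p-value under 0.05), with SEs up to 2.04. Apart from Myog, none of the markers listed was at 0. The part of other cell types in the rise of Tpm2, Tpm3 and Tmod3 was not tested. The folds were 5.14 for Tpm2, 1.72 for Tpm3 and 1.44 for Tmod3. Beside them, the ratio of sums was 1.60 for the fibroblast markers and 1.00 for endothelium. For smooth muscle and pericytes the ratio was 0.724 with Acta2 and 1.32 without it, the latter a rise held by Cspg4.

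**Figure D5:**
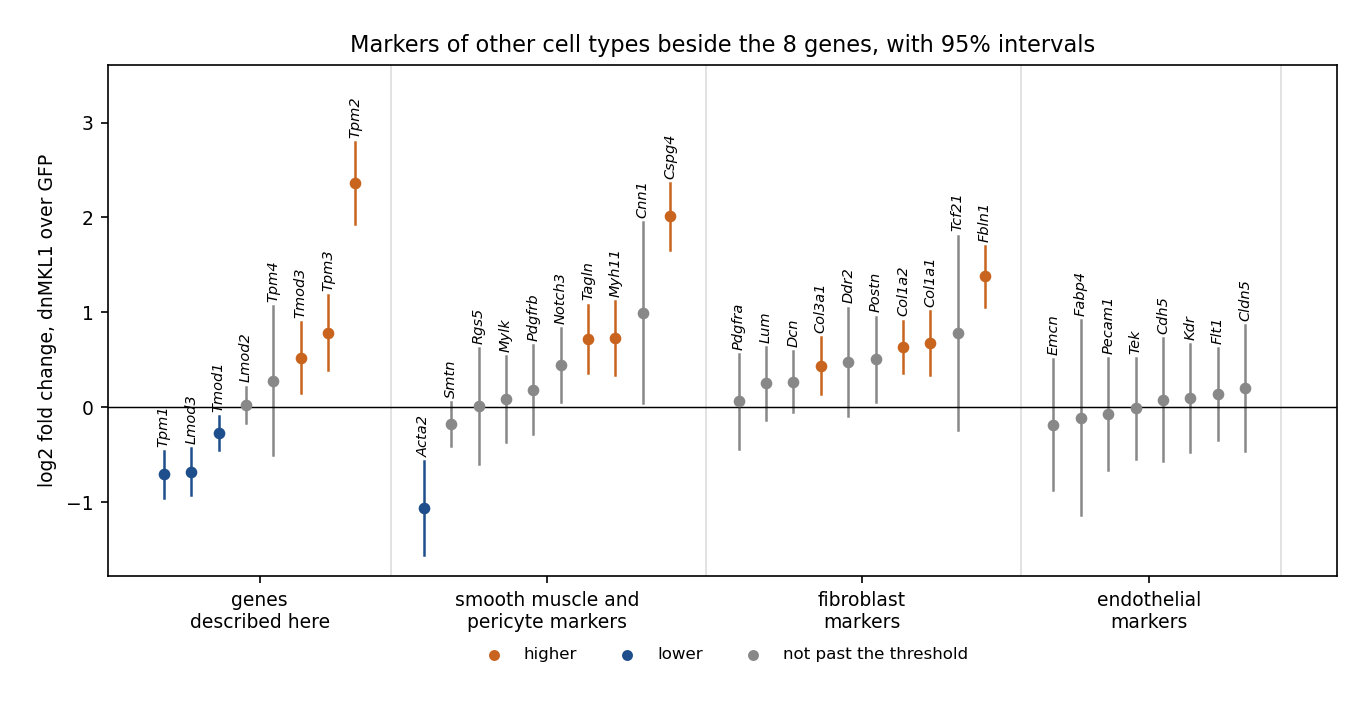
The log2 fold change of dnMKL1 over GFP is shown with its 95% interval for the 8 genes and for markers of smooth muscle and pericytes, fibroblasts and endothelium, coloured by call under the authors' scaling. Tpm2 at 2.36 is the highest point, Cspg4 at 2.01 is next to it, and the endothelial markers lie around 0.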

How the data were processed

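RNA from 5 GFP and 5 dnMKL1 libraries, grouped by their titles, was sequenced by the submitters. Per the submitters' processing notes, CASAVA 1.8, STAR 2.5.3a, featureCounts, Subread 1.5.2 and mm10 were used; annotation and use of strand are not given in the sources used here. The 1 file is the authors' comparison, with DESeq2 columns per the file headers. Its deposited base mean is a signal in normalized counts, its fold change and SE are on the log2 scale, and its Wald statistic is a score (fold change over SE). Its p-value and Benjamini-Hochberg adjusted p-value are those deposited by the authors. The adjustment covers 14056 genes with base means from 1.31.

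Implied means assume that the base mean lies midway between both group means, each group having 5 libraries. Size factors came from genes with 1 read in 1 library (base mean 1 over 10 size factors), and totals from factor times summed implied means. Reads carry no molecular identifiers, so counting errors cover counting only. The p-values set each fold change against its SE, which rests on the spread between libraries. That spread may be partly technical. Lengths, positions and overlaps came from GENCODE M21 (GRCm38), and symbols missing from the table were matched through RefSeq synonyms (2 genes). Functions were tested on simulated data. Python 3.11.15, pandas 2.3.3 and scipy 1.17.1 were used.

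Members, the 12 other gene lists and tests were chosen with earlier results of these data known. All members were named, every gene of the actins, troponins, regulators and paralogs could be, and from other lists the 2 of smallest p-value in each direction and the most abundant marker. Further genes were chosen after their values were seen. These were Klhl40, the partners of Tpm1, Acta2, Tagln, Myh11, Smtn, Rgs5, Cnn1, Ckm, Mylpf, Myog, Nppa and the paralog pairs in the closing section. Likeness to other genes over samples was not measured, since values per library were not used here.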

Additional observations from a re-analysis of the deposited data

How the results depend on the processing

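No paired analysis was possible because only the comparison, and no value of a numbered library, was used here. The fits that leave out each library, edgeR and another normalization of counts were not run either, and whether 1 library decides a value is unknown. Adjustment over all p-values, a threshold of 0.1 and centring on the median changed the call or direction of none of the 8 genes. A threshold of 0.01 made Tmod1 (-0.27) and Tmod3 (0.52) miss it. Total-count scaling turned Tmod1 to 0.016 and brought Lmod2 past the threshold at 0.31; without Mkl1 in the totals these were 0.026 and 0.32. This shift, equal for all genes, is the whole of its effect, and which scaling is nearer to RNA per cell was not tested. Members called higher and lower were 3 and 3, or 2 and 2 at the threshold of 0.01. They were 3 and 2 with a minimum absolute log2 fold change of 0.5, and 4 and 2 under either total-count scaling. Over all genes tested 16.6% were higher and 17.4% lower. Under total-count scaling these shares were 40.4% and 6.60%, and 41.3% and 6.34% without Mkl1. Shares over all genes at the threshold of 0.01 and with that minimum were not computed. Per kilobase of transcript, the share of Tpm1 was 99.6% with GFP and 98.9% with dnMKL1, against 99.7% and 99.1% in normalized counts. With SEs combined as independent, the difference of Tpm4 from Tpm1, 0.99, also excluded 0; the other 11 pairs kept their side. Leaving Acta2 out of the smooth muscle and pericyte markers turned the ratio of their sums from 0.724 to 1.32. This alternative was chosen after seeing the data, and the rise that remained was that of Cspg4, from 501 to 2019 normalized counts.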

Other observations

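In the list of filament ends and turnover, 3 pairs of paralogs, chosen after their values were seen, had one member higher and one lower, as Tpm2 and Tpm1, and Tmod3 and Tmod1, had. Other pairs of the same list did not part in this way. Cap1 and Cap2, Fhod1 and Fhod3, and Neb and Nebl had no member past the threshold under the authors' scaling. Cfl1, the non-muscle cofilin, and Cfl2, the muscle cofilin, stood at log2 fold changes of 0.69 (SE 0.14) and, for the second, -0.40 (SE 0.09) in the authors' deposited table. Capza1 and Capza2, which encode the alpha subunits of the capping protein at the other filament end, stood at 0.44 (SE 0.18) and -0.21 (SE 0.06) in the authors' deposited table. The profilins Pfn1 and Pfn2, which bind actin monomers, stood at 0.36 (SE 0.08) and -0.72 (SE 0.10) in the authors' deposited table. Under total-count scaling Pfn2 remained lower and past the threshold at -0.43, Cfl2 was at -0.11 and not past it, and Capza2 turned to 0.074 and was not past it. In the GFP group Cfl2 and Capza2 had the higher level of their pair in normalized counts (7815 against 554, and 5512 against 277), whereas Pfn2 had the lower (1124 against 1757).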
